A study of Mus musculus with 9 samples.

Results

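The genes described here are the potassium channel genes of the mouse hippocampus, taken as every protein-coding gene of the count table whose symbol begins with Kcn. There were 94 such genes among the 54532 genes of the table, in 21 subfamilies named by the letters that follow Kcn. Of these, 83 had at least 10 counts in at least 4 of the 9 libraries and were tested among 20015 genes in all. The other 11 (Kcna7, Kcna10, Kcne1, Kcne3, Kcnj1, Kcnj15, Kcnk7, Kcnk15, Kcnk16, Kcnk18 and Kcnmb3) were not tested. None of them had more than 11 counts in any library, and Kcnj1 had 0 in every library.

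All libraries came from N4 Ube3a m-/p+ mice, which lack the maternal copy of Ube3a, carry the paternal copy that neurons normally silence, and were backcrossed for 4 generations onto the 129Sv/Ev strain as a model of Angelman syndrome. At P21, 5 mice received 0.5 nmol of Ant-134, a locked nucleic acid antisense oligonucleotide against the microRNA miR-134, into the cerebral ventricle, and 4 mice received the same dose of Scr, a scrambled oligonucleotide. Every mouse was exposed to an audiogenic stimulus at P22, P24 and P26, and the hippocampus on the injected side was dissected 24 h after the last exposure, at P27. Each library is polyadenylated RNA of the whole hippocampal homogenate of 1 mouse. Both sexes were used, the sex ratio of the groups was not recorded, and no wild-type library enters the comparison.

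Potassium channels let potassium ions leave the cell and so repolarise the membrane, set the resting potential and limit repetitive firing. Voltage-gated channels are tetramers of alpha subunits whose gating and trafficking are tuned by beta subunits, while inward rectifiers, leak channels and calcium- or sodium-activated channels respond to other signals. In the hippocampus they shape dendritic excitability, spike width and interneuron firing, and in glia they take up potassium that neurons release.

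The oligonucleotide targets miR-134, a microRNA that represses messenger RNAs through short matches between its seed, bases 2 to 8, and their 3' untranslated regions. The mature strand of 22 bases lies at chr12:109734145-109734166 on the plus strand of GRCm38.p6 in RefSeq and is shown with its seed in capitals. The stretches below it are reference sequence of GENCODE M21 transcripts on GRCm38, 30 bases each, in the 3' untranslated regions of Kcnc1 and Kcnh7, the tested members with a full 8-base match, and of Kcnj10, described further on. Capitals mark the bases that pair with the seed, with the A opposite the first base of the microRNA where the match has it.
mmu-miR-134-5p: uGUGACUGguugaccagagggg
Kcnc1, chr7:46430895-46430924, plus strand: tcagcaagaggCAGTCACAcagacccccaa
Kcnh7, chr2:62701070-62701099, minus strand: atatttttaagCAGTCACAgaatttgctag
Kcnj10, chr1:172371310-172371339, plus strand: ctattaaaactAGTCACAgggcacagattc

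The 9 libraries held between 28583298 and 41978113 counts, so that the floor of 3 counts corresponds to 0.0709 to 0.107 CPM, which are counts scaled to the size of the library. The neuronal, astrocyte, oligodendrocyte and hippocampal subfield markers checked were all detected in these libraries. Some markers of these and other cell types passed an unadjusted p of 0.05 in edgeR. Over all genes tested, 1.47% were higher and 2.69% lower in Ant-134 at this threshold. Of 8 microglial markers 5 fell in Ant-134 at an unadjusted p below 0.05 (median log2 fold change of the list -0.22, summed level 314.8 to 356 CPM in Ant-134 and 370.0 to 421 CPM in Scr), and of 6 meningeal fibroblast markers 5 fell (median -0.45, 83.0 to 144 CPM in Ant-134 and 125.8 to 168 CPM in Scr). Of 7 mural markers 2 fell, of 6 endothelial markers 1 and of 4 ependymal markers 1. Of 6 thalamic markers, which mark neighbouring tissue, 1 rose, as did 1 of 6 neuronal and 1 of 5 dentate granule cell markers. In lists this small, a count of 1 or 2 is no result about the cell type. The choroid plexus, activity, astrocyte, oligodendrocyte, oligodendrocyte precursor, interneuron, striatal, CA1 and CA3 lists each had 0 markers that passed. The thalamic sum set Ant-134 replicate 3 apart at 109.7 CPM, against 60.1 to 65.4 CPM in the other Ant-134 libraries and 61.6 to 73.8 CPM in Scr. Their part in the values below was not tested, and in whole tissue fewer cells of a type and less RNA per cell cannot be told apart.

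Levels of different genes were compared as FPKM, the authors' scaling of counts to gene length and library size. Kcnab2 and Kcnip2 stood at the head of the list. Kcnab2, which encodes a cytoplasmic beta subunit of Kv1 channels, had a mean of 102.8 FPKM ± 12.1 (SD, n = 9), and Kcnip2, which encodes a calcium sensor bound to Kv4 channels, had 67.8 ± 6.26. The ranges of these genes over the 9 libraries, 85.0 to 122 and 55.7 to 75.5 FPKM, overlapped neither each other nor the range of the next gene.

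Below them, at levels whose ranges overlapped, came among others Kcnj4 with 35.7 FPKM ± 2.62, which encodes the inward rectifier Kir2.3, Kcnj10 with 35.2 ± 4.42, which encodes Kir4.1 of astrocytes, and Kcnk1 with 33.0 ± 1.84, which encodes the leak channel subunit TWIK-1. Every library of these genes lay above the highest of Kcnd2, at 23.9 FPKM. In all, 26 members had a mean of at least 10 FPKM, 42 lay between 1 and 10, and 15 of the tested members lay under 1.

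**Figure D1:**
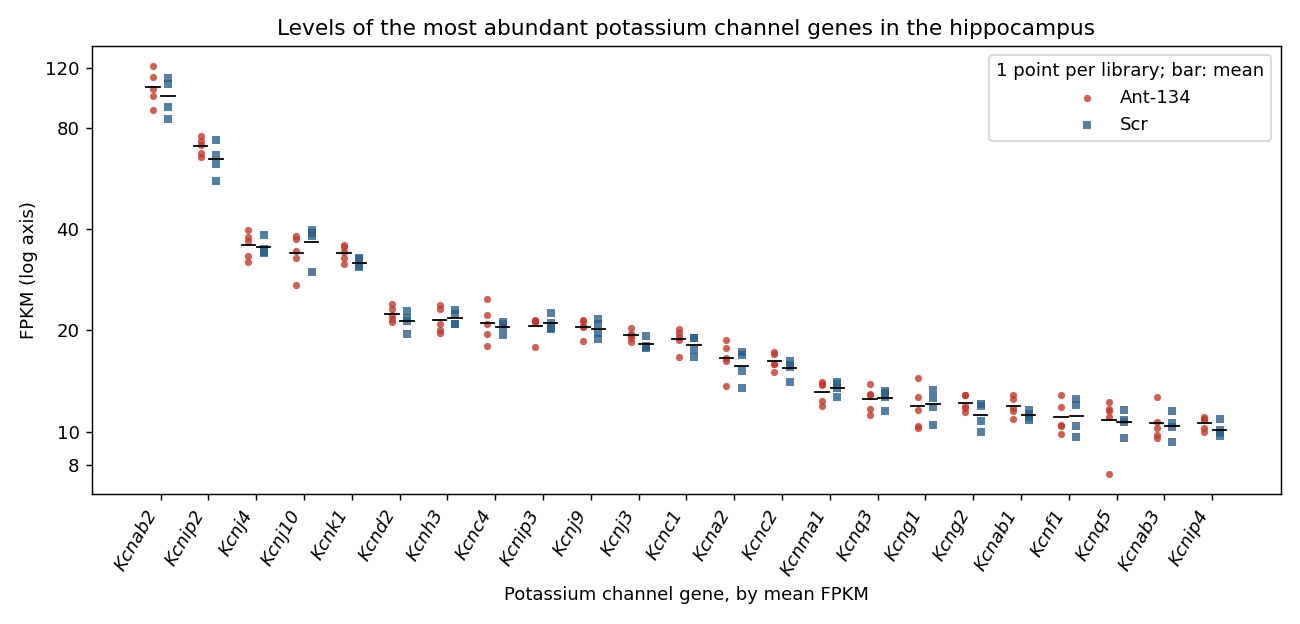
FPKM on a log axis of 23 of the 26 potassium channel genes with a mean of at least 10 FPKM, 1 point per library (circles Ant-134, n = 5, squares Scr, n = 4) with the group mean as a bar. Kcnab2 and Kcnip2 stand above all others, and the points of both groups overlap for every gene shown.

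Summed over its members, the inward rectifier subfamily Kcnj contributed 16.1% of all potassium channel FPKM, the beta subunits Kcnab 15.2%, the Kv4 partners Kcnip 12.4%, the Kv3 genes Kcnc 10.6% and the leak channels Kcnk 8.58%. The summed level of all 94 members lay between 790.2 and 858 FPKM in the 9 libraries. The summed level of Kcnj was 131 FPKM ± 6.82 in Ant-134 (SD, n = 5) and 132 ± 4.89 in Scr (SD, n = 4), and that of Kcnc was 88.4 ± 2.45 and 85.4 ± 3.97. The Kcnj difference was smaller than the SD of either group, and the Kcnc difference lay between the SDs of the groups.

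The main comparison asks whether hippocampal potassium channel transcripts differed after miR-134 was inhibited. By the quasi-likelihood test of edgeR, 1 member of the 83 tested, or 1.20%, had an unadjusted p below 0.05, against 4.17% of all 20015 genes (834 genes, of which 295 were higher and 539 lower in Ant-134). That member, Kcnu1, was higher in Ant-134, where the background in that direction is 1.47%, and 0 members were lower, where it is 2.69%. After Benjamini-Hochberg adjustment over all genes edgeR called 0 members, the smallest adjusted p being 0.998, and DESeq2 also called 0, with 1 of 93 members at an unadjusted p below 0.05. Fits that left out 1 library at a time gave 0 to 3 higher and 0 to 1 lower members. The share of all genes that passed is given for the main fit only, so the counts of DESeq2 and of these fits have no background beside them. By sign alone 43 members were higher and 40 lower. The median log2 fold change of the members was 0.0086, against 0.0027 over all genes tested, and the median of its size without regard to sign was 0.061 against 0.069.

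The widths of the intervals state what these 9 libraries could show. The 95% interval of a member reached, at the median, 0.20 on the log2 scale to either side of its estimate, and the median spread within groups was an SD of 0.142 log2 CPM, against 0.150 over all genes. For 51 members, or 61.4%, the whole interval lay within a 1.25-fold change in either direction, against 52.1% of all genes tested. For the 26 members of at least 10 FPKM, log2 fold changes ran from -0.11 to 0.12, and no interval reached below 0.777-fold or above 1.252-fold. Among the 32 members whose intervals reached beyond a 1.25-fold change, 17 had a mean of at least 1 FPKM. The other 15 were the tested members under 1 FPKM.

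**Figure D2:**
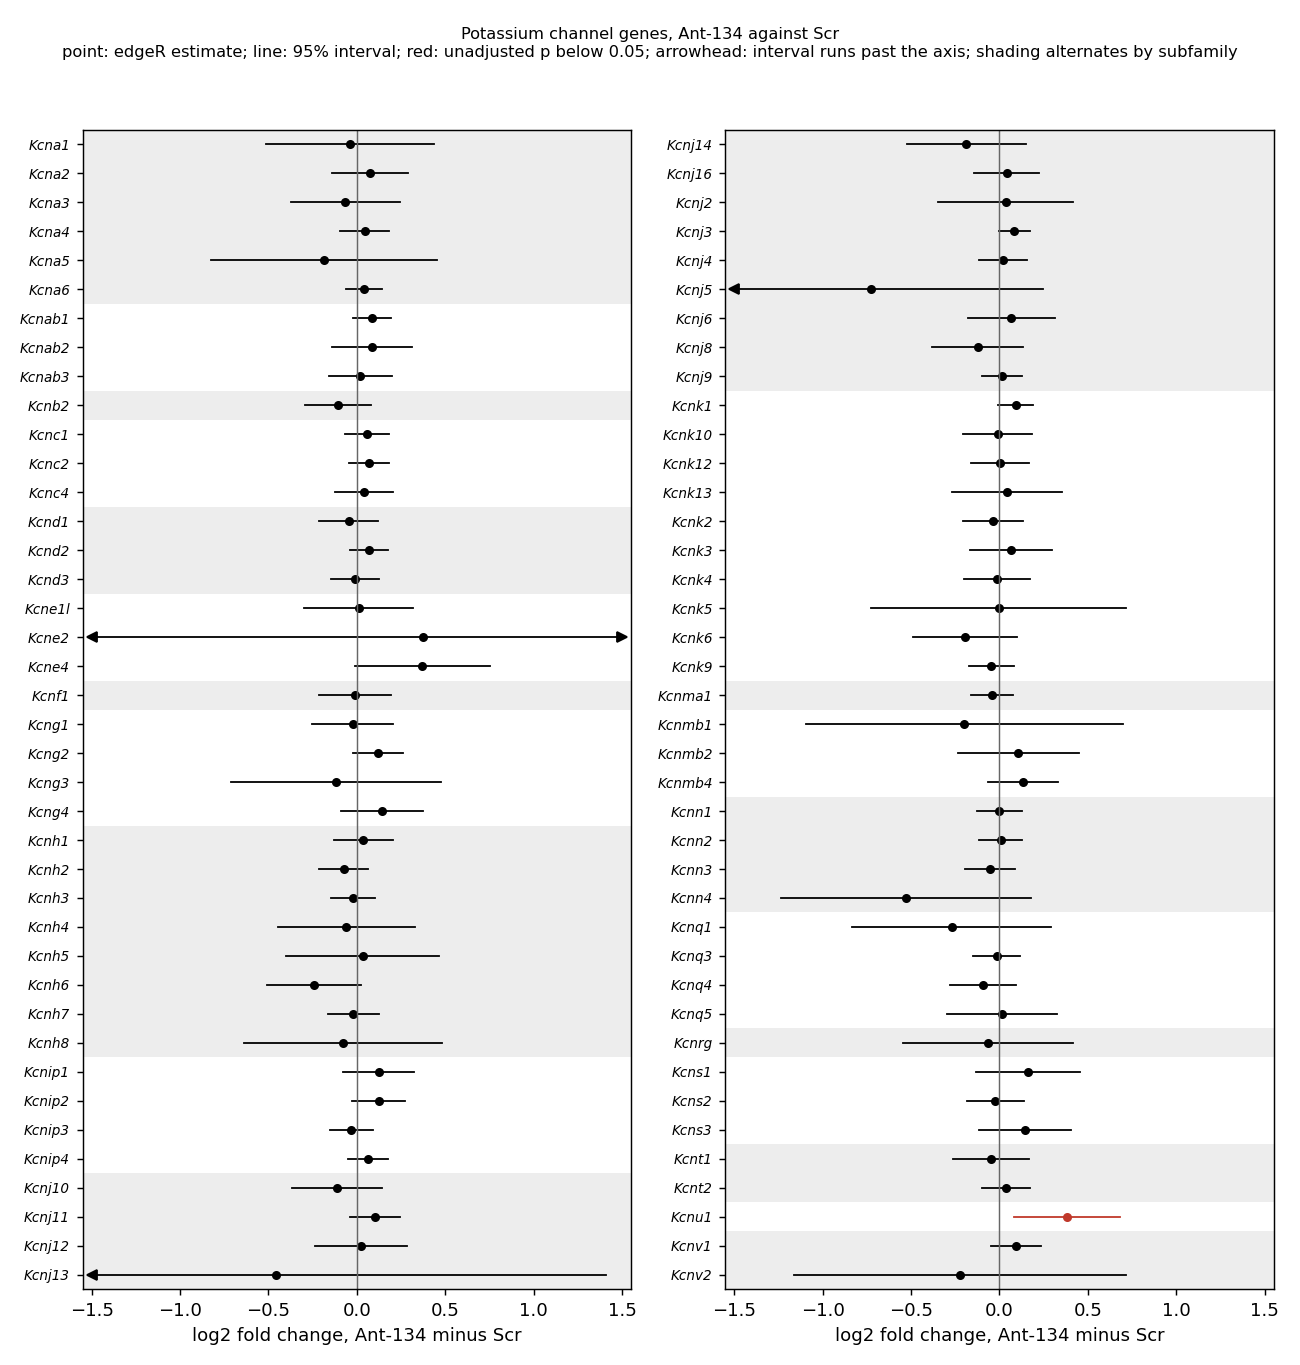
Log2 fold change of 80 of the 83 tested potassium channel genes, Ant-134 minus Scr, as edgeR's estimate with its 95% interval, ordered by subfamily. Kcnu1, in red, is the 1 gene shown whose interval excludes 0, and the widest intervals belong to Kcne2 and Kcnj13.

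Kcnu1 (ENSMUSG00000031576, chr8:25849623-25937939 of GRCm38) encodes the pH-sensitive potassium channel Slo3, best known from sperm. It was measured at 3.44, 3.09, 3.17, 3.21 and 3.97 CPM in Ant-134 replicates 1 to 5 and at 2.22, 2.81, 2.70 and 2.61 CPM in Scr replicates 1 to 4. All 5 Ant-134 libraries lay above all 4 Scr libraries, though the gap between the nearest was small. The log2 fold change was 0.38 (SE 0.14, 95% interval 0.08 to 0.68), with an unadjusted p of 0.016 in edgeR and an adjusted p of 0.998. The gene is scarce, at 0.591 to 1.06 FPKM over the 9 libraries. When Scr replicate 1, its lowest library, was left out, the p no longer passed 0.05 (log2 fold change 0.32, edgeR unadjusted p = 0.053). Nor did it pass with the replicate number as a block (log2 fold change 0.32, edgeR unadjusted p = 0.068).

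Kcnh6 (ENSMUSG00000001901, chr11:106008124-106034549) encodes an ERG-type voltage-gated subunit, Kv11.2. It was measured at 2.71, 2.57, 2.74, 2.85 and 2.91 CPM in Ant-134 and 3.13, 3.24, 3.37 and 3.28 CPM in Scr. Every Ant-134 library lay below every Scr library, and the log2 fold change of -0.24 (SE 0.12) had an unadjusted p of 0.072 in edgeR. Kcnh6 passed in no other setting than limma on log2 FPKM (unadjusted p = 0.023 with 1 added and 0.045 with 0.1 added). Groups that did not overlap were found for 2 members, Kcnu1 and Kcnh6, or 2.41% of the members tested, against 1.53% of all genes (0.65% with Ant-134 higher and 0.884% with Ant-134 lower).

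A further 6 members had an unadjusted p between 0.05 and 0.1, of which Kcnh6 is 1 and the others were higher in Ant-134 by sign. Of these, Kcnj3 belongs to the G protein-gated subunits described below, and Kcne4, a single-pass beta subunit of Kv channels singled out here after its values were seen, had the largest difference. Kcne4 was measured at 1.34, 1.66, 1.85, 1.87 and 1.49 CPM in Ant-134 and 1.16, 1.30, 1.20 and 1.41 CPM in Scr. The groups overlapped only through Ant-134 replicate 1 and Scr replicate 4. Its log2 fold change was 0.37 (SE 0.18) with unadjusted p = 0.056 in edgeR, at a level of 0.55 FPKM. Without Ant-134 replicate 1 it was 0.44 (unadjusted p = 0.035), the only fit leaving out 1 library in which Kcne4 passed, and it also passed in both limma fits on log2 FPKM (unadjusted p = 0.023 with 1 added and unadjusted p = 0.032 with 0.1 added).

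**Figure D3:**
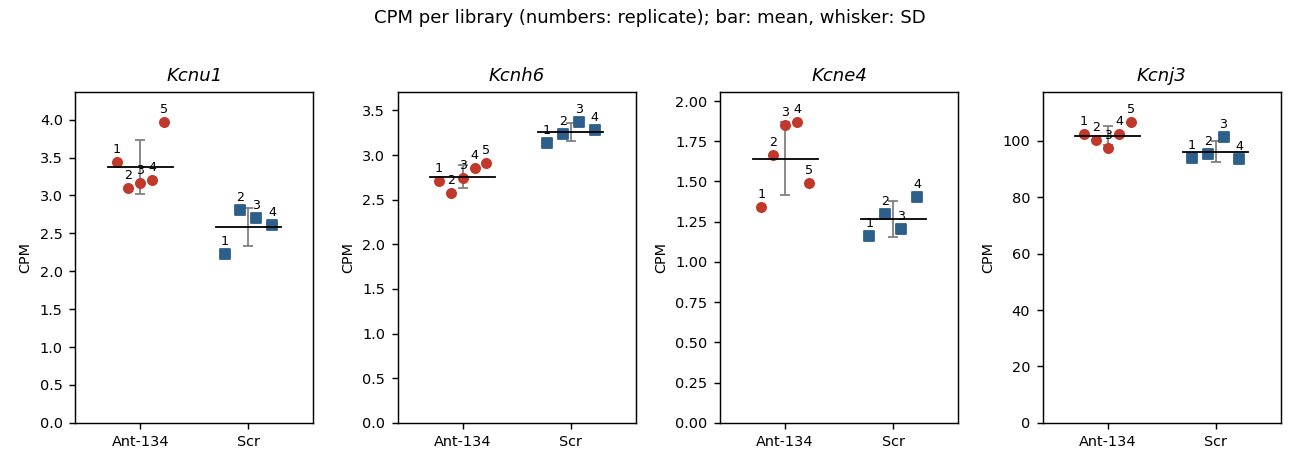
CPM in each library, from an axis that starts at 0, of Kcnu1, Kcnh6, Kcne4 and Kcnj3, the 4 potassium channel genes with the smallest unadjusted p in edgeR (circles Ant-134, squares Scr, with replicate numbers, the mean as a bar and the SD as a whisker). The groups are apart for Kcnu1, which is higher in Ant-134, and for Kcnh6, which is lower, and overlap for the other genes.

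Among the voltage-gated alpha subunits, 0 of the 6 tested Kcna genes, of the 2 Kcnb, the 4 Kcnc or the 3 Kcnd genes had an unadjusted p below 0.05 in edgeR. Against the 4.17% of all genes, a count of 0 in groups as small as these and those that follow is no result about the group. Kcna2, a Kv1 subunit of axons and the most abundant Kcna gene at 16.2 FPKM, was measured at 198, 195, 226, 214 and 163 CPM in Ant-134 and 207, 163, 183 and 204 CPM in Scr. The groups overlapped over most of their range, and the log2 fold change was 0.08 (SE 0.096, unadjusted p = 0.449).

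The Kv3 genes carry the fast repolarising current of interneurons and mossy fibres, and all 4 were higher in Ant-134 by sign, with log2 fold changes of 0.04 to 0.07 and a smallest p of 0.203. Kcnc1, with the 8-base miR-134 match shown above, was measured at 178, 183, 188, 193 and 159 CPM in Ant-134 and 181, 168, 160.0 and 182 CPM in Scr. The groups overlapped, with a log2 fold change of 0.06 (SE 0.059, unadjusted p = 0.334). For Kcnd2, the Kv4.2 subunit of the dendritic A-type current and partner of Kcnip2, the values were 112, 115, 124, 121 and 110.2 CPM in Ant-134 and 118, 102, 111 and 113 CPM in Scr. Of the Ant-134 libraries 4 lay above the Scr mean, and the log2 fold change was 0.07 (SE 0.051, unadjusted p = 0.198).

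The 5 Kcnq genes include subunits of the neuronal M-current, which restrains repetitive firing, and Kcnq1, known from heart and epithelia. Kcnq3, an M-current subunit, was measured at 173, 190.4, 192, 206 and 166 CPM in Ant-134 and 196, 172, 194 and 188 CPM in Scr, a log2 fold change of -0.02 with a 95% interval of -0.15 to 0.12. No Kcnq gene had a p below 0.299.

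Of the 8 Kcnh genes, which encode the EAG, ERG and ELK channels, 6 were lower in Ant-134 by sign and 0 had a p below 0.05. The most abundant, Kcnh3, an ELK channel of forebrain neurons, was measured at 121, 135, 116, 114 and 138 CPM in Ant-134 and 130.1, 122, 134 and 122 CPM in Scr. Kcnh5 was scarce and variable, at 2.29, 3.25, 4.41, 3.77 and 2.15 CPM in Ant-134 and 2.54, 3.14, 3.25 and 3.43 CPM in Scr, with a log2 fold change of 0.03 (SE 0.20). The silent subunits, which do not form channels alone but alter other voltage-gated subunits, comprised Kcnf1 with 4 Kcng, 3 Kcns and 2 Kcnv genes, and 0 of these 10 passed. Their most abundant genes by subfamily were Kcng1 (54.1 CPM ± 7.79 in Ant-134 and 55.0 ± 5.50 in Scr), Kcns2 (35.3 ± 3.86 and 35.9 ± 2.25) and Kcnv1 (45.8 ± 4.09 and 42.9 ± 2.62). For Kcng1 and Kcns2 the difference was smaller than the SD of either group, and for Kcnv1 it lay between the SDs of the groups.

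Among the beta subunits, all 3 Kcnab genes and 3 of 4 Kcnip genes were higher in Ant-134 by sign, and 0 had a p below 0.05. Kcnab2 was measured at 634, 508, 686, 559 and 586 CPM in Ant-134 and 629.9, 609, 479 and 518 CPM in Scr. The ranges overlapped widely, with a log2 fold change of 0.09 (SE 0.10, unadjusted p = 0.403) that ran from 0.02 without Scr replicate 3 and 0.03 without Ant-134 replicate 3 to 0.14 without Ant-134 replicate 2 and 0.15 without Scr replicate 1. Kcnip2 was measured at 255, 229, 236, 250.2 and 264 CPM in Ant-134 and 232, 259, 196 and 219 CPM in Scr. All 5 Ant-134 libraries lay above the Scr mean, but Scr replicate 2 was among the highest of the 9, and the log2 fold change was 0.12 (SE 0.070, unadjusted p = 0.099). Without Scr replicate 2 it was 0.20 with unadjusted p = 0.0080, the only fit leaving out 1 library in which Kcnip2 passed. Kcnab1 passed only without Ant-134 replicate 1 (log2 fold change 0.12, edgeR unadjusted p = 0.036). Kcnip1 passed only without Scr replicate 4 (log2 fold change 0.21, edgeR unadjusted p = 0.045).

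The Kcne genes encode single-pass beta subunits, and the most abundant, Kcne1l, lay at 3.95 CPM ± 0.523 in Ant-134 and 3.92 ± 0.645 in Scr. The calcium-activated BK channel is formed by Kcnma1, measured at 211, 236, 237, 241 and 204 CPM in Ant-134 and 231, 219, 238 and 241 CPM in Scr. The groups overlapped and the log2 fold change was -0.04 (SE 0.056, unadjusted p = 0.486). Its neuronal beta subunit Kcnmb4 lay at 11.0 CPM ± 1.15 in Ant-134 and 10.03 ± 0.655 in Scr, with a log2 fold change of 0.13 (SE 0.093, unadjusted p = 0.176), and 20.8% and 10.7% of its exon bases are shared with 2 annotated antisense genes. Without Ant-134 replicate 3, which stood apart in thalamic markers, the log2 fold change of Kcnmb4 was 0.07 (unadjusted p = 0.455). The smooth muscle beta subunit Kcnmb1 was near the floor, at 0.640, 0.312, 0.427, 0.590 and 0.463 CPM in Ant-134 and 0.940, 0.804, 0.235 and 0.234 CPM in Scr.

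The small-conductance gene Kcnn2, whose channels produce the afterhyperpolarisation that follows a spike, was measured at 55.9, 62.8, 60.8, 61.6 and 56.9 CPM in Ant-134 and 59.4, 55.9, 56.0 and 65.8 CPM in Scr. Its log2 fold change was 0.01 with an interval of -0.11 to 0.13. The sodium-activated genes Kcnt1 and Kcnt2 gave log2 fold changes of -0.05 (SE 0.097, unadjusted p = 0.633) and 0.04 (SE 0.063, unadjusted p = 0.556). Kcnt1 was measured at 80.4, 79.8, 107, 78.4 and 93.3 CPM in Ant-134 and 96.8, 83.3, 97.6 and 85.2 CPM in Scr, and Kcnt2 at 28.0, 31.3, 28.7, 30.2 and 25.8 CPM in Ant-134 and 27.6, 29.7, 28.1 and 26.9 CPM in Scr. In both genes the groups overlapped. Leaving out 1 library gave Kcnt1 a log2 fold change of -0.13 (unadjusted p = 0.080) without Ant-134 replicate 3, its highest library, to -0.01 without Scr replicate 3.

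The G protein-gated inward rectifiers, known as GIRK channels, carry the slow inhibition that follows activation of GABA-B and adenosine receptors. Kcnj3 (GIRK1) was measured at 102, 100.2, 97.4, 103 and 107 CPM in Ant-134 and 94.0, 95.2, 102 and 93.4 CPM in Scr. All 5 Ant-134 libraries lay above the Scr mean and Scr replicate 3 lay within the Ant-134 range, with a log2 fold change of 0.08 (SE 0.042, 95% interval -0.0049 to 0.17, unadjusted p = 0.062 in edgeR). The p was below 0.05 without Ant-134 replicate 3 (0.041) or without Scr replicate 3 (0.026). Of its exon bases 31.1% are shared with a noncoding gene on the opposite strand.

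Kcnj6 (GIRK2) was measured at 21.4, 22.6, 25.4, 29.8 and 19.1 CPM in Ant-134 and 22.6, 22.4, 20.2 and 25.2 CPM in Scr, with a log2 fold change of 0.07 (SE 0.11, unadjusted p = 0.567). Kcnj9 (GIRK3) was measured at 80.3, 89.1, 92.7, 93.1 and 88.5 CPM in Ant-134 and 90.4, 94.0, 81.6 and 85.3 CPM in Scr, with a log2 fold change of 0.01 (SE 0.053, unadjusted p = 0.789). Kcnj5 (GIRK4), added after its values were seen, was scarce, at 0.0914, 0.390, 0.178, 0.393 and 0.364 CPM in Ant-134 and 0.752, 0.213, 0.616 and 0.351 CPM in Scr. Its log2 fold change of -0.73 (SE 0.46, unadjusted p = 0.131) was the lowest among the 83 tested members, and without Scr replicate 2 it was -0.99 (unadjusted p = 0.042). The groups overlapped for each of these subunits. The remaining inward rectifiers included Kcnj4, at 72.0, 86.0, 82.4, 69.7 and 79.8 CPM in Ant-134 and 74.1, 76.3, 83.7 and 74.0 CPM in Scr, for which the log2 fold change was 0.02 (SE 0.063). Among the 10 tested leak channel genes, Kcnk1 was measured at 79.6, 73.9, 81.0, 71.1 and 77.0 CPM in Ant-134 and 73.2, 74.5, 70.1 and 69.5 CPM in Scr. Its log2 fold change was 0.09 (SE 0.047, unadjusted p = 0.072), and leaving out Ant-134 replicate 4 gave 0.12 (unadjusted p = 0.024), the only such fit in which it passed.

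Some members are known from cells other than neurons. Kcnj10 and Kcnj16 encode the Kir4.1 and Kir5.1 subunits through which astrocytes clear potassium. Kcnj10 was measured at 179, 209, 204, 189 and 148 CPM in Ant-134 and 216, 164, 213 and 209 CPM in Scr. Ant-134 replicate 5 and Scr replicate 2 were the lowest of the 9 libraries, and the log2 fold change was -0.11 (SE 0.11, unadjusted p = 0.357). It was -0.20 (unadjusted p = 0.060) without Scr replicate 2 and -0.04 (unadjusted p = 0.668) without Ant-134 replicate 5. Kcnj16 lay at 17.8 CPM ± 2.18 in Ant-134 and 17.3 ± 0.844 in Scr, and 0 of 7 astrocyte markers passed (median log2 fold change -0.008).

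The microglial channel genes Kcnk13 (THIK-1), Kcna3 (Kv1.3) and Kcnn4 (KCa3.1) gave log2 fold changes of 0.04 (SE 0.15), -0.06 (SE 0.14) and -0.53 (SE 0.33), with p of 0.782, 0.665 and 0.131, beside a microglial marker list in which 5 of 8 genes fell. Kcnn4 was measured at 0.792, 0.650, 0.427, 0.590 and 0.397 CPM in Ant-134 and 0.376, 0.969, 1.23 and 0.732 CPM in Scr. All 5 Ant-134 libraries lay below the Scr mean, but the lowest of the 9 was Scr replicate 1. Without Scr replicate 1 the log2 fold change of Kcnn4 was -0.76 (unadjusted p = 0.023). Kcnj8, the Kir6.1 subunit of pericytes, lay at 3.96 CPM ± 0.301 in Ant-134 and 4.30 ± 0.385 in Scr (log2 fold change -0.12, unadjusted p = 0.330).

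Kcne2 and Kcnj13 encode a beta subunit and the inward rectifier Kir7.1, both of choroid plexus epithelium, and showed the largest spread within groups of all tested members, with SDs of 1.77 and 1.17 log2 CPM. Kcne2 was measured at 10.6, 1.09, 2.46, 0.262 and 0.496 CPM in Ant-134 replicates 1 to 5 and 1.19, 3.88, 3.75 and 0.322 CPM in Scr replicates 1 to 4. Kcnj13 was measured at 3.41, 0.806, 0.854, 0.295 and 0.232 CPM in Ant-134 and 0.689, 1.80, 2.84 and 0.849 CPM in Scr. The summed level of 9 choroid plexus markers in the same order was 2626, 315, 691, 73.0 and 107 CPM and 278, 1098, 2057 and 85.7 CPM. All 3 measures were highest in Ant-134 replicate 1, and in both genes the groups overlapped.

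With all libraries the log2 fold changes were 0.38 (SE 1.1, unadjusted p = 0.753) for Kcne2 and -0.46 (SE 0.81, unadjusted p = 0.586) for Kcnj13. Without Ant-134 replicate 1 that of Kcne2 was -1.11 (unadjusted p = 0.262) and that of Kcnj13 was -1.49 (unadjusted p = 0.021). The part of choroid plexus tissue in these values was not tested. Of the exon bases of Kcnj13, 49.1% are shared with Gigyf2, a protein-coding gene on the opposite strand, whose reads cannot be told apart from its own if strand was not used in counting.

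**Figure D4:**
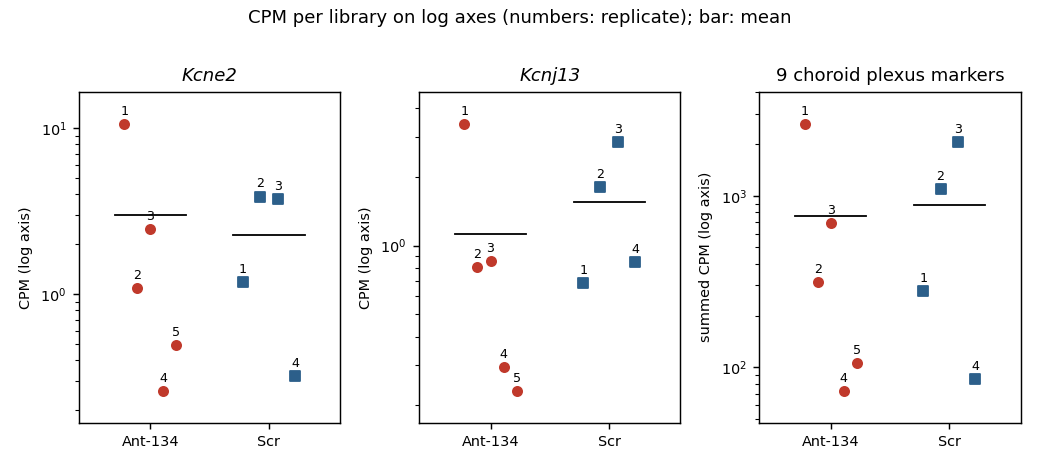
CPM of Kcne2 and Kcnj13 and summed CPM of 9 choroid plexus markers in each library on log axes (circles Ant-134, squares Scr, with replicate numbers and the group mean as a bar). Ant-134 replicate 1 is the highest of the 9 in every panel, and the libraries of both groups spread from 73.0 to 2626 CPM of the markers.

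A list of 12 members with human counterparts linked to epilepsy was looked at, which does not hold every such gene. Among them were Kcna1, Kcna2, Kcnc1, Kcnd2, Kcnh5, Kcnj10, Kcnma1, Kcnq3, Kcnt1 and Kcnt2. Of the 12, 0 had an unadjusted p below 0.05 in edgeR, against 4.17% of all genes tested, and with so few genes this is no result about them. The smallest p was 0.198, and 6 were higher in Ant-134 by sign. Their log2 fold changes ran from -0.11 for Kcnj10 to 0.08 for Kcna2. Kcna1, the Kv1.1 subunit whose loss causes episodic ataxia and seizures, varied between libraries, at 45.4, 47.1, 54.1, 61.1 and 30.1 CPM in Ant-134 and 49.7, 38.8, 49.9 and 56.8 CPM in Scr. Ant-134 replicate 5 lay below every other library, and the log2 fold change was -0.04 (SE 0.20, unadjusted p = 0.861).

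The same library was the lowest of the 9 for 15 of the 83 tested members, or 18.1%, against 14.6% of all genes tested, and the highest for 13, or 15.7%, against 15.99%. For Kcnq5, an M-current subunit singled out here after its values were seen, it gave 58.2 CPM where the other 4 Ant-134 libraries gave 85.9 to 95.6 and the Scr libraries 74.9 to 90.0 CPM. With all libraries the log2 fold change of Kcnq5 was 0.01 (unadjusted p = 0.916), and without Ant-134 replicate 5 it was 0.12 (unadjusted p = 0.045). In Ant-134 replicate 5 the median of 9 activity-regulated genes, among them Fos and Arc, lay 0.63 log2 units above the Scr mean, and the median of 7 oligodendrocyte markers lay 0.54 below it. The other 8 libraries lay between -0.19 and 0.19 for the activity genes, and between -0.17 and 0.36 for the oligodendrocyte markers. The part of either in the channel values was not tested.

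**Figure D5:**
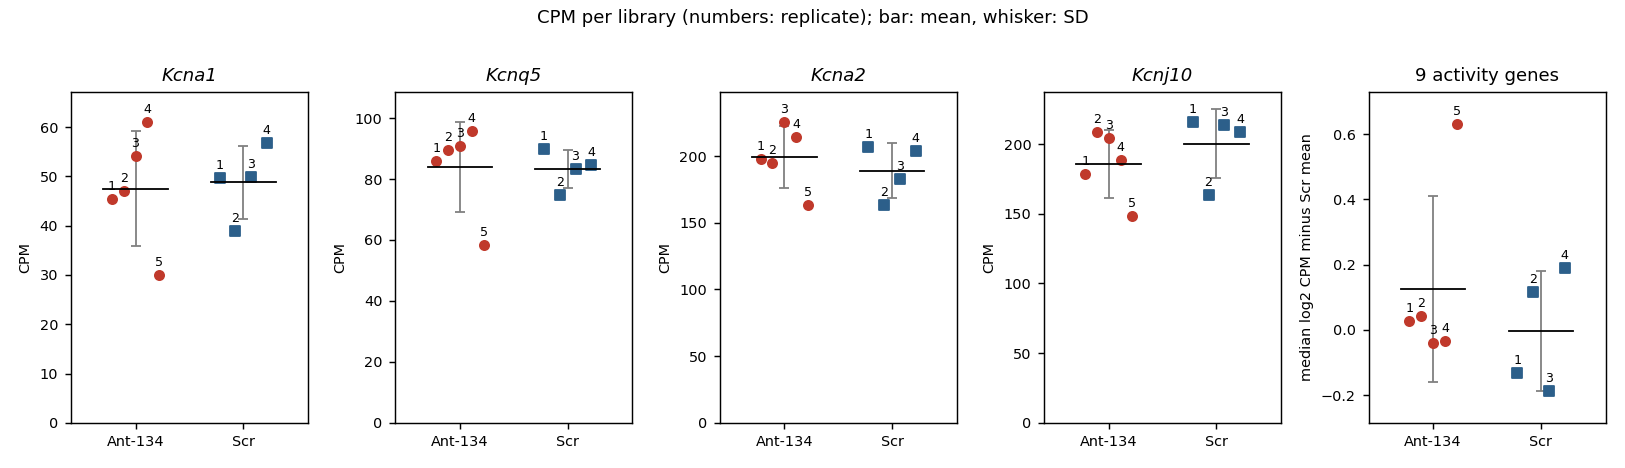
CPM of Kcna1, Kcnq5, Kcna2 and Kcnj10 in each library, and the median log2 CPM of 9 activity-regulated genes minus the Scr mean (circles Ant-134, squares Scr, with replicate numbers, the mean as a bar and the SD as a whisker). Ant-134 replicate 5 is the lowest of the 9 for Kcna1, Kcnq5 and Kcnj10 and the highest for the activity genes.

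Potassium channels act together with proteins outside the Kcn names, and 41 such partners were looked at, of which 40 were tested. They comprised auxiliary subunits and regulators such as Dpp6 and Lgi1, proteins that cluster channels at the axon such as Cntnap2, other potassium-conducting channels such as the Hcn genes, and potassium pumps, and cotransporters such as Slc12a5. At an unadjusted p below 0.05 in edgeR 1 was higher in Ant-134 and 0 were lower, or 2.50%, against the 4.17% of all genes. The median log2 fold change was 0.015. The gene that passed was Lrrc38, which encodes an auxiliary subunit of BK channels and was measured at 1.52, 1.09, 1.57, 0.622 and 0.496 CPM in Ant-134 and 0.501, 0.685, 0.762 and 0.410 CPM in Scr. Of the Ant-134 libraries 3 lay above all Scr libraries and the others among them, with a log2 fold change of 0.84 (SE 0.35, unadjusted p = 0.032, adjusted p = 0.998). The p passed 0.05 in 4 of the 9 fits that left out 1 library. In limma on log2 FPKM, Lrrc38 did not pass with 1 added (log2 fold change 0.20, unadjusted p = 0.065). Nor did it pass with 0.1 added (log2 fold change 0.58, limma unadjusted p = 0.070). The BK genes Kcnma1 and Kcnmb4 are given above.

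A match to the miR-134 seed, either CAGTCAC or AGTCACA, was found in the longest annotated 3' untranslated region of 18 of the 83 tested members, or 21.7%, against 19.5% of the 15314 tested genes with such a region. The regions of the members were longer, with a median of 1777 bases against 1164. The full 8-base match CAGTCACA was found in 2 members, Kcnc1 and Kcnh7, or 2.41%, against 4.45% of all genes. Of the 18 members with a match 0 had an unadjusted p below 0.05 in edgeR, against 4.36% of all tested genes with a match, and with so few members this is no result about them. Kcne4 and Kcng4, each with 1 match, passed in other settings, Kcne4 as given above and without robust estimation (unadjusted p = 0.045), and Kcng4 without Scr replicate 4 (unadjusted p = 0.025), each making the count 1. By sign 7 of the 18 were higher in Ant-134. Their median log2 fold change was -0.014, against 0.015 for the members without a match, and in all genes tested it was 0.0062 with a match and 0.0063 without.

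Kcnh7, an ERG-type subunit with 3 matches in a region of 9532 bases, was measured at 47.0, 49.0, 56.5, 51.0 and 50.7 CPM in Ant-134 and 55.7, 44.6, 52.7 and 53.2 CPM in Scr. The groups overlapped and the log2 fold change was -0.02 (SE 0.067, unadjusted p = 0.774). Kcnj10 had 1 match, and its values are those given above. The matches are to the reference strain, and the mice were on a 129Sv/Ev background, so the presence of each in these animals was not tested.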

How the data were processed

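Polyadenylated RNA of 9 mice was sequenced as read pairs by the authors. Per the labels' processing notes and the study's methods, reads were called with CASAVA 1.8, mapped to GRCm38 with HISAT2 2.0.5 and assigned to genes with featureCounts 1.5.0-p3. The strand setting is not given in the sources used here, so overlapping and antisense genes may share reads (26 tested members share an exon base with another gene, 7 of them at least 10%). The deposited counts are not normalized, and the deposited FPKM values are the authors' own scaling of them.

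Counts were tested with edgeR 4.0.16 in R 4.3.3 (TMM scaling, robust quasi-likelihood fit, no covariate) on all genes with at least 10 counts in at least 4 libraries, with Benjamini-Hochberg adjustment over them. As in the study, an unadjusted p below 0.05 was the threshold. CPM values are TMM-scaled, and standard errors and 95% intervals come from the same fit. Each p sets the difference between the groups against the spread between mice, estimated with information shared across genes. The scripts were tested on simulated data. Alternatives, among them DESeq2 1.42.0, and limma 3.58.1 on log2 FPKM with 1 or 0.1 added, whose fold changes understate the change of low genes, were run and are covered in the closing section. The floor of 3 counts covers counting error only. Between libraries of 1 group the chi-square per gene was 8.30 to 20.4, so no libraries of the same group were duplicates of each other. Pairs across the groups were not compared in this way. The biological coefficient of variation was 11.9%.

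GENCODE M21 held exons for all 94 members and a 3' untranslated region for 93. Seed matches were searched on the transcript strand, and a match of 7 bases inside the 8-base match was not counted again. Named were members with an unadjusted p below 0.05 or groups that did not overlap, the most abundant member of each subfamily with at least 2 tested, the epilepsy-linked, GIRK and non-neuronal members, the 3 with the largest spread and partner genes that passed. Some genes that this rule names are not reported here. Others were singled out after their values were seen (Kcnab1, Kcne4, Kcng4, Kcnh7, Kcnip1, Kcnj5, Kcnip3, Kcnq5 and the genes named in the closing section). The members and lists were chosen with earlier results of these data known.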

Additional observations from a re-analysis of the deposited data

Results flagged for a closer look

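In 5 of 166 groups of member values, 1 library lay far from the others of its group by Dixon's criterion. Chance gives about 1 in 20, or 8.3 of 166. Kcnq5 was 58.2 CPM in Ant-134 replicate 5, against 85.9 to 95.6 in the other Ant-134 libraries. Kcne2 was 10.6 CPM in Ant-134 replicate 1, against 0.262 to 2.46, and Kcnj13 was 3.41 CPM in the same library, against 0.232 to 0.854, beside the highest choroid plexus marker sum of the 9 libraries. Kcnj10 was 163.5 CPM in Scr replicate 2, against 209 to 216 in the other Scr libraries, and without Scr replicate 2 its log2 fold change was -0.20 (edgeR unadjusted p = 0.060). Kcnip3, a calcium sensor that binds Kv4 channels, was 64.0 CPM in Ant-134 replicate 3, against 75.7 to 76.7, beside the highest thalamic marker sum of the 9 libraries, and its log2 fold change was -0.030 (unadjusted p = 0.608) with all libraries and 0.016 (unadjusted p = 0.74) without Ant-134 replicate 3.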

How the results depend on the processing

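The results were recomputed under 19 other settings. The share of all genes that passed is given for the main fit only. Without that share for each setting, the counts below are no result about the members or the partner genes. The 1 higher member of edgeR became 2 without robust estimation (Kcne4 with Kcnu1), 3 with limma on log2(FPKM + 1) and 2 with limma on log2(FPKM + 0.1), and both limma fits gave 1 lower member, Kcnh6. Leaving out 1 library gave 0 to 3 higher members and 0 to 1 lower members. The higher count was 0 without Scr replicate 1, 3 without Ant-134 replicate 1, Scr replicate 2 or Scr replicate 4, 2 without Scr replicate 3 or Ant-134 replicate 3, 4 or 5, and 1 without Ant-134 replicate 2. The lower count was 1 without Ant-134 replicate 1 (Kcnj13), Scr replicate 1 (Kcnn4) or Scr replicate 2 (Kcnj5). The partner genes gave 0 higher under both limma fits, 0 to 2 higher and 0 to 1 lower when 1 library was left out, with 0 higher without Ant-134 replicate 1, 2 or 3 or Scr replicate 1, 2 without Scr replicate 3 or 4, and 1 lower without Scr replicate 1. With the 8-base match alone the members with a miR-134 site numbered 2. The median log2 fold change of the members lay between -0.014 and 0.027 in all settings. The cause of each change was not tested. No setting gave an adjusted p below 0.05 for a member.

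With the replicate number as a block, 3 members were higher (Kcna2, Kcnc2 and Kcnq5) and 0 were lower. In the same edgeR fit 2 partner genes were higher, and Kcnu1 had a log2 fold change of 0.32 (unadjusted p = 0.068). These counts too have no share of all genes in that fit beside them. In deviations from the group means, same-numbered Ant-134 and Scr libraries correlated between -0.11 and 0.01, so the numbers were not taken to pair the mice. It turned the sign of Kcna1 to 0.093, Kcne1l to -0.061, Kcnj16 to -0.019, Kcnq3 to 0.021 and Kcns2 to 0.018. The sign of Kcne2 turned to -0.12 with a covariate of Y-linked genes, -0.010 with limma on log2(FPKM + 1) and -0.17 on log2(FPKM + 0.1), and that of Kcnh5 to -0.00051 on the latter.

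Of 662 single-gene values of the genes chosen by the rule, 594 kept their direction and side of the threshold, 9 lost and 10 gained the threshold, and 49 changed sign, in 16 genes. Leaving out 1 library, log2 fold changes of both signs ran from -0.14 to 0.089 for Kcna1, -0.18 to 0.057 for Kcna3, -0.071 to 0.13 for Kcne1l, -1.11 to 0.77 for Kcne2, -0.10 to 0.026 for Kcng1, -0.059 to 0.0072 for Kcnh3, -0.11 to 0.14 for Kcnh5, -0.016 to 0.095 for Kcnj16, -0.020 to 0.060 for Kcnj4, -0.031 to 0.13 for Kcnj6, -0.019 to 0.049 for Kcnj9, -0.046 to 0.16 for Kcnk13, -0.45 to 0.15 for Kcnmb1, -0.019 to 0.062 for Kcnn2, -0.059 to 0.022 for Kcnq3 and -0.091 to 0.020 for Kcns2. The 15 tested members under 1 FPKM all had 95% intervals that reached beyond a 1.25-fold change, and the part of depth in this was not tested. The design lacks a wild-type group and an oligonucleotide-free group, and the hippocampus was taken whole at 1 time point.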

Other observations

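The count table also holds 5 noncoding genes antisense to potassium channel genes, which are not members. Kcnq1ot1, the imprinted transcript antisense to Kcnq1, was measured at 35.1, 31.2, 37.7, 40.9 and 32.0 CPM in Ant-134 replicates 1 to 5 and at 43.7, 42.8, 35.7 and 31.9 CPM in Scr replicates 1 to 4. The groups overlapped, with a log2 fold change of -0.12 (SE 0.10, edgeR unadjusted p = 0.261). Kcnd3os gave -0.18 (SE 0.20, unadjusted p = 0.390), Kcnmb4os1 0.060 (SE 0.38, unadjusted p = 0.876) and Kcnmb4os2 0.0019 (SE 0.12, unadjusted p = 0.988), and Kcnab3os had at most 9 counts in a library and was not tested. None of the 4 tested passed the threshold.

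Ranked by library, Scr replicate 2 was the lowest of the 9 for 14 of the 83 tested members, or 16.9%, where it was lowest for 9.88% of all genes tested, and Ant-134 replicate 4 was the highest for 17 members, or 20.5%, against 15.4% of all genes. Ant-134 replicate 3, the library with the highest thalamic marker sum, was the highest for 15 members, or 18.1%, against 12.1%, and Ant-134 replicate 1 was the lowest for 12, or 14.5%, against 10.7%. Scr replicate 2 was the most deeply sequenced library.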
